A study of Rattus norvegicus with 3 samples.

Results

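Thy1 and Art2b are genes of 2 surface proteins long used to stage rat T cells, and they were taken here by name as 2 of the 34034 genes counted in single-cell RNA libraries of the thymus of Lewis rats. Their RNA was followed across the cell labels that the authors deposited, in 8362 cells of thymocyte stages, 8216 cells of 5 fibroblast labels, 452 cells of the mural label vSMC/PC and 61 cells of the medullary epithelial label TEC:mTEC2. The rats were 8 weeks old, and no treatment, sex or strain other than Lewis is given. A thymocyte library was made from tissue digested with collagenase D and DNase I, and a stromal library from a Liberase TH and DNase I digest that was then depleted of CD45-positive cells, by magnetic and then flow sorting. Each group is 1 library, how many animals were pooled is not given in the sources used here, and every comparison below describes these libraries, with no test across animals. A section for spatial transcriptomics from the same study was not used here.

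Thy1, also called CD90, is a small immunoglobulin-superfamily protein held in the outer membrane by a glycosylphosphatidylinositol (GPI) anchor. In the rat it is carried by nearly all thymocytes and by T cells that have recently left the thymus, and it is lost as these mature, while fibroblasts and pericytes of many tissues also carry it. Art2b encodes RT6, a GPI-anchored protein of the family of ADP-ribosyltransferases, which take ADP-ribose from NAD outside the cell. RT6 appears on rat T cells after they leave the thymus, so that Thy1 and RT6 have served together as markers of young and of mature peripheral T cells.

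The authors annotated 13226 of 16160 barcodes in the stromal library. These had 131624350 unique molecular identifiers (UMIs), with a median of 9087.5 per cell. In the thymocyte library 8546 of 8574 barcodes were annotated, with 64440495 UMIs and a median of 3994 per cell. The libraries shared 38 barcodes, and leaving these out kept each of the 9 ratios recomputed so within its interval. Levels are given as CPM, the UMIs of a gene per 1000000 UMIs of all cells of a label. Intervals are at 95% and cover counting error only, since UMIs of 1 library are not replicates. Over the annotated cells, Thy1 had 59640 UMIs in the thymocyte library and 16576 in the stromal library. Art2b had 139 and 37 UMIs, so its levels rest on few molecules and few cells.

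The labels were checked against marker genes. All 6 fibroblast markers were detected in each fibroblast label, at a summed 8923 to 55306 CPM, with TMC4 lowest and capFb highest. The 6 mural markers summed to 9151 CPM in vSMC/PC, 4570 CPM in TMC4, 1761 CPM in TMC3 and 26.9 to 47.2 CPM in the other fibroblast labels. They also summed to 2460 CPM in TEC:mTEC1. Markers of mTEC2 cells, Aire among them, summed to 10419 CPM in TEC:mTEC2 against 3666 CPM in TEC:mTEC1. Of these 8 markers 6 were at least 2-fold higher in TEC:mTEC2 and 1 was at least 2-fold lower. The T-lineage markers summed to 4.0 to 12.7 CPM in the fibroblast and mural labels, to 66.3 CPM in TEC:mTEC2 and to 3948 CPM in the label Thymocyte of the stromal library. That last label also held 13557 CPM of the 6 fibroblast markers. In the thymocyte library the T-lineage markers summed to 3140 to 6939 CPM in the 9 labels checked, and 5 markers of mature T cells to 1092 to 2013 CPM in the 4 mature labels against 21.9 CPM in DP. Early thymocyte markers (Ptcra, Rag1, Il2ra, Kit and Notch1) summed to 2244 CPM in DP, 426 CPM in Treg, 315 CPM in Mature CD4-2 and 60.0 to 91.8 CPM in the other mature labels. The sum does not show which of these genes gave the value in Treg, so it is no measure of immature thymocyte RNA there.

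The sequence before the Art2b start that RefSeq gives is shown. Where the Art2b RNA of T cells or of epithelium begins was not tested in these data. RefSeq places the start on chromosome 1 of the build GRCr8, on the minus strand, and the 250 bases before it span chr1:165371959-165372208. The table held 1 of the 2 members. The gene's row was matched by symbol, because the counts were made on another build. Capitals mark 2 overlapping copies of a 23-base stretch that starts at bases 1 and 21 and so repeats with a period of 20 bases.
Art2b, 250 bases before the start, 5′ to 3′: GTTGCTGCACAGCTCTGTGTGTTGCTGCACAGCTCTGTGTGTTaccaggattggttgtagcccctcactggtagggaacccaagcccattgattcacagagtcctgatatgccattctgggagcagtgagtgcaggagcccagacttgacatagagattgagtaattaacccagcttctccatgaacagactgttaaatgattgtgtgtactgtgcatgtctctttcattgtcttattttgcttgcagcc
A direct repeat of at least 23 bases occurred in 573 of 33469 rat promoter windows of this length, or 1.71%. Of 9 motifs searched on both strands, none had a match in the Art2b window, which says only that these letters are not there. The share of all windows that hold each was 12.9% for the TATA box, searched as TATAAA, and 63.3% for the core shared by ETS factors, searched as GGAAG. For the RUNX core, searched as TGTGGT, the share of windows was 14.5%, and for the GATA core, searched as AGATAA, it was 10.3%. The E-box of basic helix-loop-helix factors, searched as CANNTG, was found in 65.5% of windows, and the KLF box, searched as CCACCC, in 26.1%. The FOXO core, searched as TGTTTA, was found in 12.1% of windows, the TCF core, searched as CTTTGA, in 13.9%, and the NF-kB core in 0.0956%.

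Thy1 RNA was highest in double-positive (DP) thymocytes, which carry both CD4 and CD8, and fell steeply at the stages labelled as signalled and single-positive (SP). The label DP had 34502 Thy1 UMIs in 5202 cells, 1824 CPM (1805 to 1843), and 97.7% of its cells had a UMI. Pre DP-sig followed with 1460 CPM (1392 to 1530), and its share of cells with a UMI was 91.7%. DP-sig had 430 CPM (395 to 467), with a UMI in 55.3% of cells. Its level was 4.24-fold (3.90 to 4.62) below DP and 3.39-fold (3.08 to 3.74) below Pre DP-sig. The median cell held 6 Thy1 UMIs in DP, 5 in Pre DP-sig and 1 in DP-sig, at similar median depths of 3205.5, 3484 and 4010 UMIs.

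The double-negative (DN) thymocytes, which precede the DP stage, stood below DP per UMI but above it per cell. DN had 628 CPM (613 to 643) and DP-P 838 CPM (824 to 852), 2.90-fold and 2.18-fold below DP. These cells were deeper, with medians of 23190 UMIs in DN and 15439 in DP-P. Per cell, DN held 17.4 and DP-P 16.9 Thy1 UMIs on average, against 6.63 in DP and 5.39 in Pre DP-sig. Thy1 RNA in a DN or DP-P cell was thus higher in molecules and lower as a share of that cell's RNA. After every cell was thinned to 1000 UMIs, 81.5% of DP, 66.8% of Pre DP-sig, 60.4% of DP-P, 52.8% of DN and 29.5% of DP-sig cells kept a Thy1 UMI, which is the order of the CPM.

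**Figure D1:**
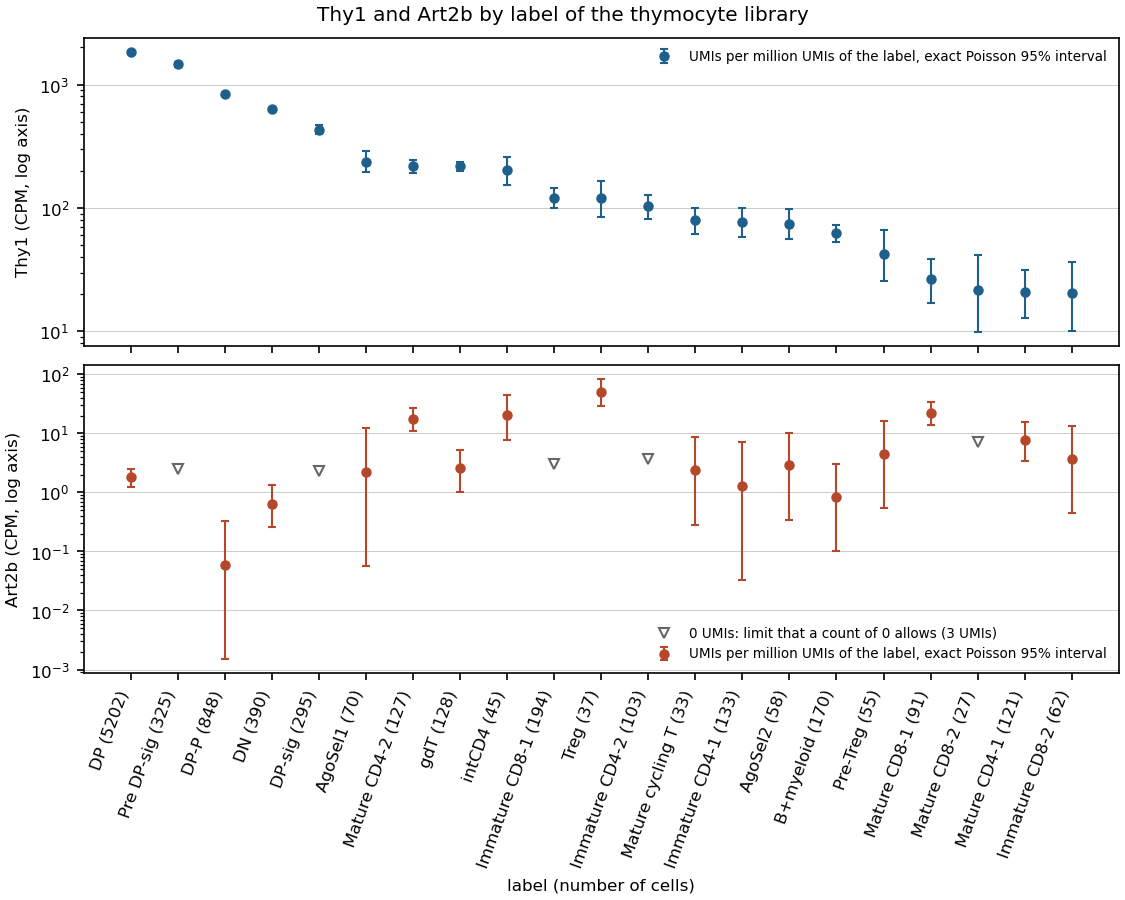
Levels of Thy1 (top) and Art2b (bottom) in CPM on log axes for the labels of the thymocyte library with at least 20 cells, ordered by Thy1, with exact Poisson 95% intervals and with open triangles at the limit that a count of 0 allows (3 UMIs). Thy1 ran from 1824 CPM in DP to 20.3 CPM in Immature CD8-2, and Art2b was highest in Treg at 50.5 CPM, a label in the middle of the Thy1 order.

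Over the 4 immature SP labels Thy1 was 20.8-fold (18.4 to 23.5) below DP, and over the 4 mature labels 20.1-fold (18.1 to 22.5) below. The ratio of the mature to the immature pool was 1.03 (0.876 to 1.22), but Mature CD4-2 held 274 of the 329 Thy1 UMIs of the mature pool. Without that label the immature pool was 3.80-fold higher (2.83 to 5.17), and with cells holding a Rag1 UMI left out of both pools it was 3.21-fold higher (2.40 to 4.35). Both settings were chosen after the data had been seen. Within the immature labels Thy1 was 121 CPM in Immature CD8-1, 103 CPM in Immature CD4-2, 76.9 CPM in Immature CD4-1 and 20.3 CPM in Immature CD8-2. In Immature CD4-2, 1 cell held 41 of the 84 Thy1 UMIs.
Among the mature labels, Mature CD4-2 stood apart at 218 CPM (193 to 246). Mature CD8-1 had 26.4 CPM, Mature CD8-2 21.7 CPM and Mature CD4-1 20.7 CPM, and these 3 did not differ from their neighbours beyond counting error. Mature CD4-2 exceeded Mature CD4-1 10.6-fold (6.78 to 17.4).
In the order of levels, each step from DP through Pre DP-sig, DP-P, DN and DP-sig to AgoSel1 (237 CPM) was larger than its counting interval. Of the 15 steps below AgoSel1, only that from intCD4 (201 CPM) to Immature CD8-1 was.

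A UMI of Thy1 in a cell does not by itself show that the cell transcribes it, because free RNA enters droplets. The label B+myeloid had a Thy1 UMI in 18.2% of its 170 cells and in 2.47% after thinning, with 11506.5 UMIs in the median cell. It is no clean negative, since immature rat B cells carry Thy1. Mature CD4-1 had a UMI in 8.26% of cells and Mature CD8-1 in 8.79%, at medians of 7964 and 10290 UMIs, and 1.65% and 3.30% after thinning. The unthinned shares lie below that of B+myeloid, and the thinned share of Mature CD8-1 lies above it, and whether Thy1 in these labels is background was not tested. DP (97.7%) and DP-sig (55.3%) lie far above it at lower depth.

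**Figure D2:**
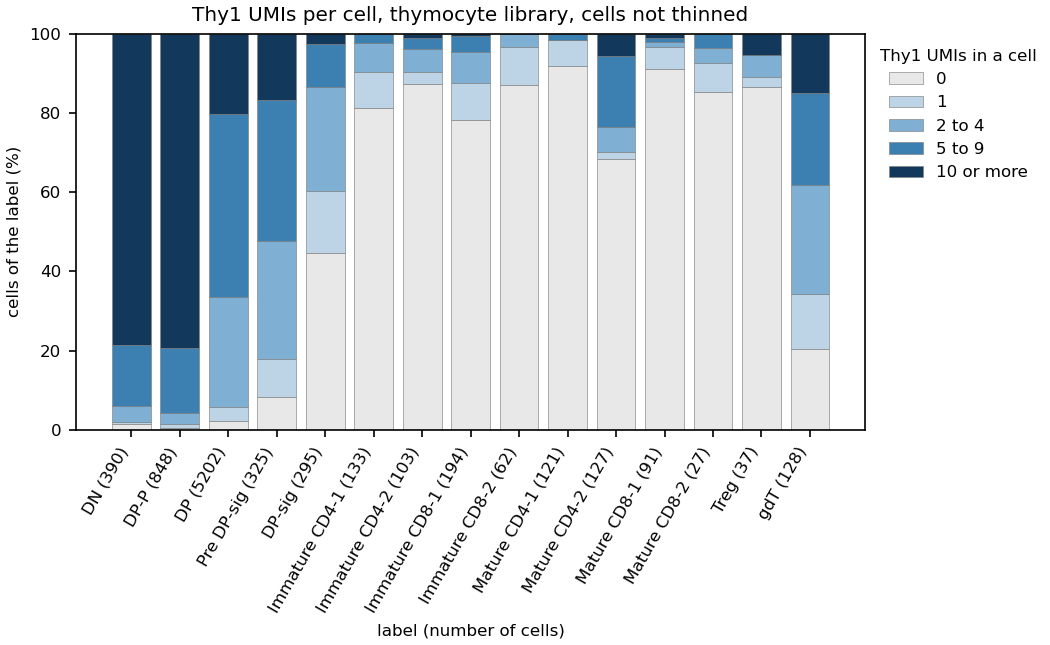
Share of cells (%, stacked bars) with 0, 1, 2 to 4, 5 to 9 and 10 or more Thy1 UMIs in 15 labels of the thymocyte library, cells not thinned, with the number of cells in brackets. Cells with 5 or more UMIs made up 93.8% of DN, 66.4% of DP and 13.6% of DP-sig, and among the mature labels 23.6% of Mature CD4-2 against 1.65% of Mature CD4-1.

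Mature CD4-2 was not uniform. Of its 127 cells, 40 had a Thy1 UMI and 87 had none, and 23.6% had 5 or more. The split of cells by Thy1 was made after its levels had been seen, and the 2 sets are compared only on other genes. Rag1, whose product cuts receptor genes for rearrangement and which marks the DP stage, had 477 CPM (419 to 540) in the cells with Thy1 and 2.72 CPM (0.330 to 9.84, 2 UMIs) in those without. Dntt, which adds bases at the rearranged joints, had 237 against 5.45 CPM. Cd8b, a chain of the CD8 coreceptor, had 452 against 55.9 CPM. Ptcra, the pre-receptor alpha chain, had 61.5 CPM with Thy1 and 0 UMIs without.
The egress genes were present in both sets. S1pr1, the receptor that guides exit from the thymus, had 121 CPM with Thy1 and 174 CPM without, and Klf2, which drives S1pr1, had 265 and 407 CPM. The cells with Thy1 were also deeper, at a median of 12222.5 against 8465 UMIs. Whether those droplets held RNA of more than 1 cell was not tested.

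Thy1 in the mature labels lay mostly in cells with a Rag1 UMI. Of the 366 mature cells 45 had one, and these held 267 of the 329 Thy1 UMIs. Thy1 stood at 477 CPM in them and at 20.2 CPM in the 321 mature cells without Rag1. Rag1 was chosen for this split after its values had been seen, so the split restates the association shown above. The cells with Rag1 were also deeper, at a median of 12022 against 9122 UMIs, and the part of depth was not tested. In Mature CD4-2, 94.3% of the 35 cells with Rag1 had a Thy1 UMI, and 7.61% of the 92 without. With those cells left out, the mature labels had 0.0111 of the DP level (0.00848 to 0.0142) in place of 0.0497, and the ratio of Mature CD4-2 to Mature CD4-1 was 3.29 (1.75 to 6.56). In DP, 98.2% of cells with a Rag1 UMI and 85.4% of those without had Thy1, at levels of 1822 and 1879 CPM. Nearly all DP cells had a Thy1 UMI, so the share of cells could show little of a split there.

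**Figure D3:**
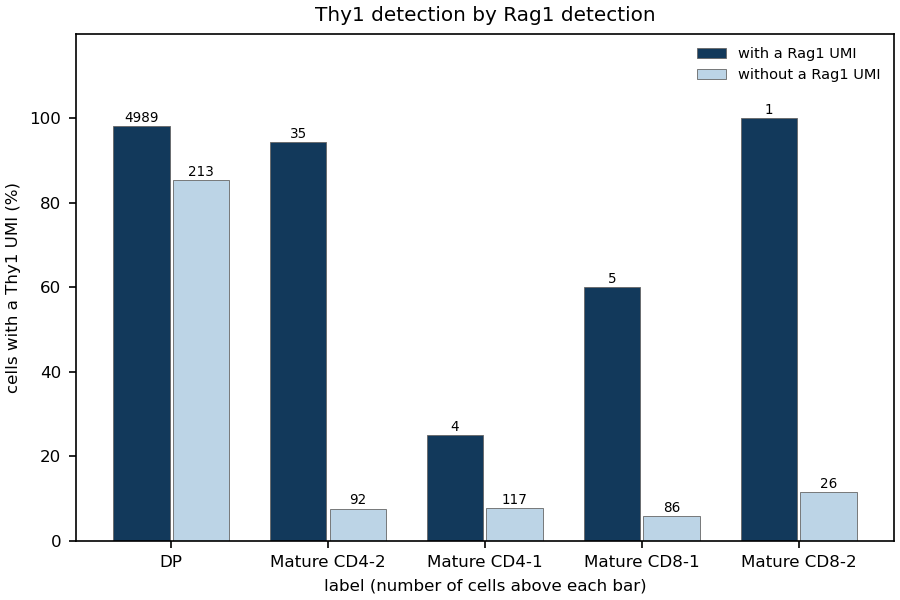
Cells with a Thy1 UMI (%, bars from 0) among cells with (dark) and without (light) a Rag1 UMI, for DP and the 4 mature labels, with the number of cells above each bar. Rag1 was chosen for the split after its values had been seen. Without Rag1 the mature labels lay between 5.81% and 11.5%; with Rag1, Mature CD4-2 reached 94.3% of 35 cells, and the other 3 bars rest on 1 to 5 cells.

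DP-sig divided along the same line, with the cells with Thy1 the shallower ones. Its 163 cells with Thy1 and 132 without had medians of 3876 and 4123.5 UMIs. Cd8a had 367 CPM with Thy1 and 72.2 CPM without, and Rag1 56.6 and 8.59 CPM. Cd69, an early activation marker, had 235 and 143 CPM. The label gdT went the other way for Rag1, with 290 CPM in its 102 cells with Thy1 and 686 CPM in its 26 cells without.

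By likeness over labels (Pearson's r of log2(CPM + 1) over the 21 labels with at least 20 cells), the genes with the pattern most like Thy1 in the thymocyte library included Ssx2ip (r = 0.965), Gyg1 (0.949), Dynlt5 (0.936) and Lag3 (0.931). The labels share 1 library and differ in depth, so these values are descriptions. Ssx2ip, Dynlt5 and Lag3 were, like Thy1, highest in DP, with 1276, 349 and 602 CPM, and Gyg1 was highest in Pre DP-sig with 331 CPM.

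Art2b RNA had its highest levels in regulatory and mature T-cell labels of the thymocyte library. Treg had 16 UMIs in 11 of 37 cells, 50.5 CPM (28.9 to 82.0). Mature CD8-1 had 21 UMIs in 16 of 91 cells, 22.2 CPM (13.7 to 33.9). Mature CD4-2 had 22 UMIs in 11 of 127 cells, 17.5 CPM (11.0 to 26.6), of which 1 cell held 8. Mature CD4-1 had 8 UMIs in 7 of 121 cells, 7.87 CPM (3.40 to 15.5). Mature CD8-2 had 0 UMIs in 27 cells, which allows up to 7.25 CPM. The label intCD4 had 20.8 CPM, but its 6 UMIs came from 2 cells, and all 5 UMIs of the 18 NKT cells came from 1.
The first step of the order, from Treg to Mature CD8-1, was larger than counting error, at 2.28-fold (1.11 to 4.58), and the next 3 steps were not. Mature CD8-1 exceeded Mature CD4-1 2.81-fold (1.20 to 7.34), while Mature CD4-2 over Mature CD4-1 at 2.23 (0.955 to 5.79) did not clear it. Treg exceeded the 4 mature labels together 3.60-fold (1.91 to 6.41).

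The 4 immature SP labels together had 3 Art2b UMIs in 492 cells, 0.965 CPM (0.199 to 2.82). The mature labels stood 14.5-fold higher (4.71 to 72.9) at 14.0 CPM. Pre DP-sig, DP-sig, Immature CD4-2 and Immature CD8-1 had no Art2b UMI, which allows up to 2.50, 2.33, 3.68 and 3.05 CPM. Relative to DP the mature labels were 7.81-fold higher (4.96 to 12.4). Thinning moved that ratio to 2.82 (2 and 10 UMIs) and that of Treg to the mature labels from 3.60 to 13.2 (4 UMIs, against a floor of 3).
The B-cell marker sum was highest in Treg, as Art2b was, but its order over the other labels differed from that of Art2b. The 5 B-cell markers summed to 461 CPM in Treg, 163 CPM in Mature CD4-2, 146 CPM in Mature CD4-1, 31.6 CPM in Mature CD8-1, 21.7 CPM in Mature CD8-2 and 0.687 CPM in DP. In the mature labels 390 of these UMIs were Cd79a, while Cd79b, Ms4a1 and Pax5 were at 0. Art2b stood at 14.8 CPM in the 123 mature cells with a Cd79a UMI and at 13.6 CPM in the 243 without, and with the former left out the ratio to DP was 7.59 (4.56 to 12.6). In Treg 27 of 37 cells had Cd79a and held 14 of the 16 Art2b UMIs, and without such cells the ratio of Treg to the mature labels was 2.59 (0.302 to 10.1).
DP itself had 34 UMIs in 32 of 5202 cells, 1.80 CPM (1.25 to 2.51), and DP-P had 1 UMI in 848 deeper cells, 0.0585 CPM, a ratio of 0.0325 (0.00080 to 0.194) to DP. DN had 7 UMIs, 5 of them in 1 cell. Cells with an Art2b UMI made up 0.615% of DP and 1.18% of B+myeloid, at median depths of 3205.5 and 11506.5 UMIs. Per UMI, DP stood at 1.80 CPM and B+myeloid at 0.837 CPM on 2 UMIs, and after thinning 10 cells of DP and none of B+myeloid kept one. DP-P, at a median of 15439 UMIs, had Art2b in 0.118% of cells. What part of the DP signal is free RNA was not tested. The shares of Treg (29.7%, interval 15.9 to 47.0) and Mature CD8-1 (17.6%, 10.4 to 27.0) lie above B+myeloid (0.143 to 4.18), while that of Mature CD4-1 (5.79%, 2.36 to 11.6) overlaps it. After thinning 10.8% of Treg, 1.10% of Mature CD8-1 and 0.194% of DP cells kept a UMI, and the level of 1 or 2 UMIs in the mature labels is too low to order them.

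Both RNAs in 1 cell were found in 47 of 8546 annotated cells of the thymocyte library. In DP, 30 of the 32 cells with Art2b also had Thy1 (93.8%), against 97.7% of the other DP cells. In the mature labels 4 of 34 had both (11.8%), against 17.5% of the others, and in Treg 2 of 11 (18.2%), against 11.5%. The median depth of mature cells with and without Art2b was alike, at 9579 and 9571.5 UMIs. In the mature cells without a Rag1 UMI, 30 of 321 had Art2b, and these held 44 of the 51 Art2b UMIs. Of the 45 mature cells with a Rag1 UMI 4 had Art2b, with 7 UMIs, so the share of cells was alike in both sets. Thy1 UMIs, by contrast, lay mostly in the cells with Rag1.

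Genes of thymocyte maturation and egress were counted in the same contrast, the 4 mature labels against DP, where 11.2% of 12666 genes with at least 20 UMIs were at least 2-fold higher and 19% at least 2-fold lower (6.4% and 9.13% at 3-fold). Of 22 such list genes 10 were higher and 10 lower. Among those with the largest difference were Il7r, a receptor chain for interleukin-7 (317 against 1.27 CPM), Ccr7, a chemokine receptor of medullary entry (39.4 against 0.211 CPM, 4 UMIs in DP), and S1pr1 (159 against 1.32 CPM). Thy1 stood with the lower genes Rag1 (24.8-fold) and Dntt (20.1-fold). Of the 10 thymocyte genes used below as a measure of thymocyte RNA, 6 were lower and none higher. Art2b's 51 and 34 UMIs put it with the higher genes.
Few of its relatives were measured well enough. Of 14 genes of the ADP-ribosyltransferase family and of extracellular nucleotide and NAD metabolism, 8 had at least 20 UMIs. Art4, another family member, was 3.18-fold higher in the mature labels (50.1 CPM) and Nt5e, the ectoenzyme CD73 that makes adenosine, 5.95-fold higher (35.5 CPM). Bst1 and Cd38, surface enzymes that consume NAD, were 23.9-fold and 2.15-fold lower. Of 7 measured genes of other GPI-anchored proteins, 4 were higher, among them Bst2, or tetherin (43.4-fold, 12 UMIs in DP), Nt5e and Cd55, a complement regulator (2.60-fold), and 1 was lower, Cntn1, a contactin (14.1-fold).
The enzymes that build the anchor shared by Thy1 and RT6 moved little. Of 27 such genes 23 lay within 2-fold, Pgap1 was 2.28-fold higher, and Pigb (3.21-fold), Pigf (2.73-fold) and Pigv (2.57-fold) were lower, with a list median of -0.24 on the log2 scale against -0.32 over all genes tested. Of 4 measured genes of reported Thy1 ligands, Itgb3, the integrin beta-3 chain, was 8.71-fold higher in the mature labels.

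Among the genes most like Art2b over the 21 labels, r was lower than for Thy1: Palldl1 0.818, Zc3hav1 0.798, Fau 0.791, Tnfsf8 0.789 and Tmem71 0.778. Zc3hav1, Fau, Tnfsf8 and Tmem71 were highest in Treg, as Art2b was. With few Art2b UMIs per label these rankings are weak descriptions, and 2 of the 5 genes stayed with a pseudocount of 10.

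In the stromal library Thy1 was highest in Thymocyte (1167 CPM) and B cell (278 CPM). Most fibroblast labels and vSMC/PC followed, while TEC:aaTEC2 (104 CPM) and the label nmSC (95.2 CPM) stood above capFb. The level differed between the fibroblast labels. TMC3 had 2581 UMIs in 1152 cells, 244 CPM (235 to 254). TMC4 had 2657 UMIs in 1249 cells, 230 CPM (221 to 239), and vSMC/PC 726 UMIs in 452 cells, 215 CPM (200 to 231). TMC2 followed at 161 CPM (156 to 165), TMC1 at 115 CPM (110 to 121) and capFb at 59.6 CPM (55.9 to 63.5). TMC4 and vSMC/PC did not differ beyond counting error (1.07, 0.984 to 1.16), and each other step among the fibroblast and mural labels did. TMC3 exceeded TMC4 by only 1.06-fold (1.01 to 1.12).
TMC3 exceeded capFb 4.10-fold (3.81 to 4.42), TMC2 exceeded it 2.70-fold (2.51 to 2.89) and TMC1 1.94-fold (1.79 to 2.10). Among the fibroblast and mural labels, capFb, with the highest sum of fibroblast markers, had the least Thy1. The 3 of these labels with the highest sums of mural markers had the most. This did not hold outside them, since TEC:mTEC1 had 2460 CPM of the mural markers and 23.9 CPM of Thy1.

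A Thy1 UMI was found in 68.2% of TMC3, 64.5% of TMC4, 50.5% of TMC2, 41.8% of vSMC/PC, 39.9% of TMC1 and 31.2% of capFb cells. As a background, 9.70% of 505 myeloid cells had one. These cells should lack the gene, and their median depth was 9510 UMIs, against medians of 6446 to 11378.5 UMIs in the fibroblast and mural labels. After thinning, the shares were 20.7%, 18.3%, 12.7%, 14.2%, 8.79% and 5.16%, against 1.39% in myeloid cells, and vSMC/PC then stood above TMC2. Cells with 5 or more Thy1 UMIs made up 16.8% of TMC3 and 3.02% of capFb.

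**Figure D4:**
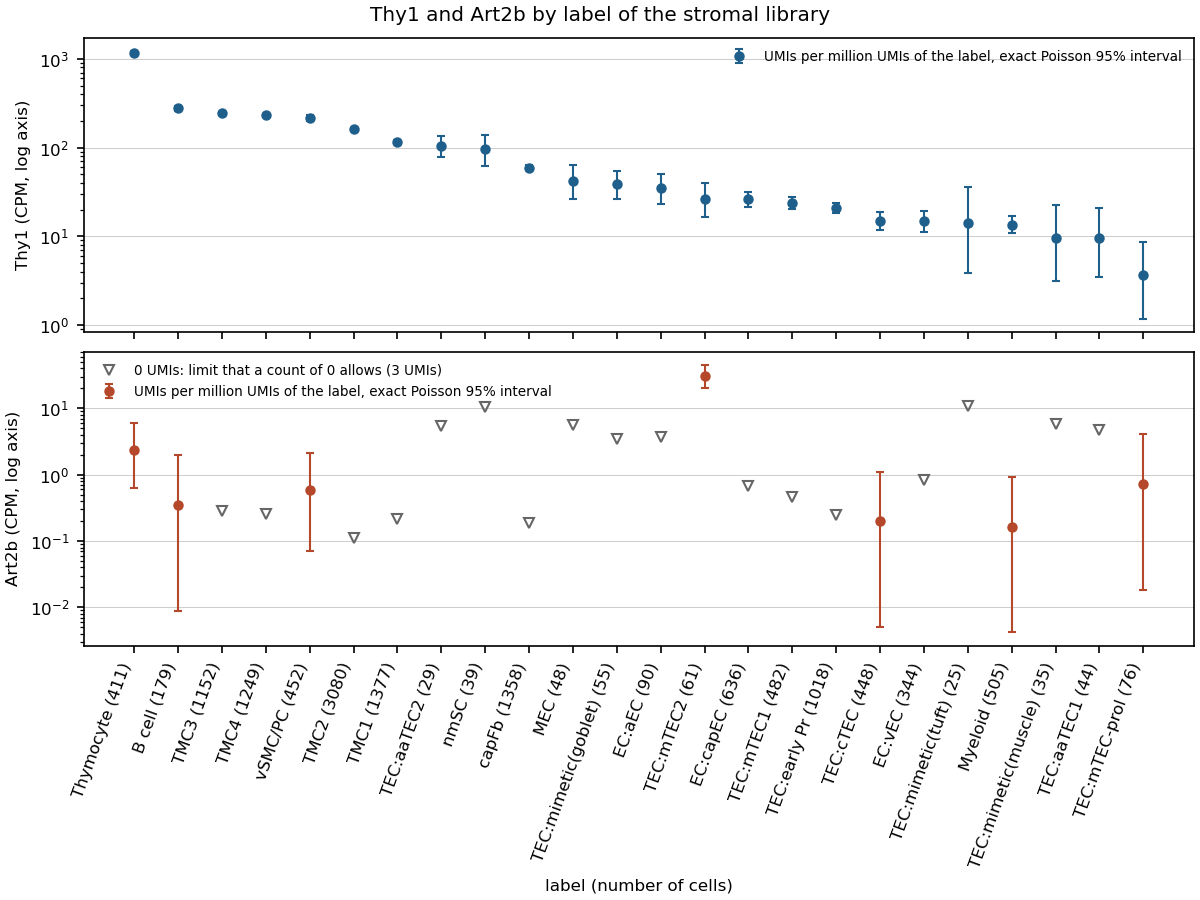
Levels of Thy1 (top) and Art2b (bottom) in CPM on log axes for the labels of the stromal library with at least 20 cells, ordered by Thy1, with exact Poisson 95% intervals and open triangles at the limit that a count of 0 allows. After Thymocyte (1167 CPM) and B cell (278 CPM), Thy1 was highest in TMC3, TMC4 and vSMC/PC, while Art2b rose above single UMIs only in TEC:mTEC2 (30.8 CPM) and Thymocyte (2.33 CPM).

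Thymocyte RNA was measured beside Thy1 with 10 thymocyte genes (Ptprc, the CD3 chains Cd3d, Cd3e and Cd3g, the CD8 chains Cd8a and Cd8b, the signalling genes Lat and Lck, and Ptcra and Rag1). Their summed level was 7064 CPM in the label Thymocyte, 7.73 to 11.6 CPM in the fibroblast labels and 21.6 CPM in vSMC/PC. In Thymocyte there were 0.165 Thy1 UMIs for each UMI of the 10 genes. At that ratio the thymocyte RNA in the 5 fibroblast labels would carry 119 Thy1 UMIs, and 12108 were counted, 102 times as many. The multiple was 164 in TMC4, 127 in TMC3, 101 in TMC2, 84.5 in TMC1, 60.2 in vSMC/PC and 46.6 in capFb. Leaving out stromal cells with 3 or more UMIs of the 10 genes left the ratio of TMC3 to capFb at 4.10 and moved that of vSMC/PC to capFb from 3.61 to 3.55.
In TEC:mTEC2 the picture differed. It had 23 Thy1 UMIs, 26.3 CPM (16.7 to 39.4), at 190 CPM of the 10 genes, and 27.4 UMIs would follow at the thymocyte ratio. Of the 166 UMIs of the 10 genes in this label 60 were Ptcra and 35 Ptprc, and without these 2 genes 13.5 UMIs would follow, so that the 23 are 1.71 times as many. The multiple for the pooled fibroblasts was then 104. Thy1 was also not above its level in TEC:mTEC1 (1.10, 0.676 to 1.71). It was 5.83-fold (3.89 to 9.20) below the pooled fibroblasts.

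**Figure D5:**
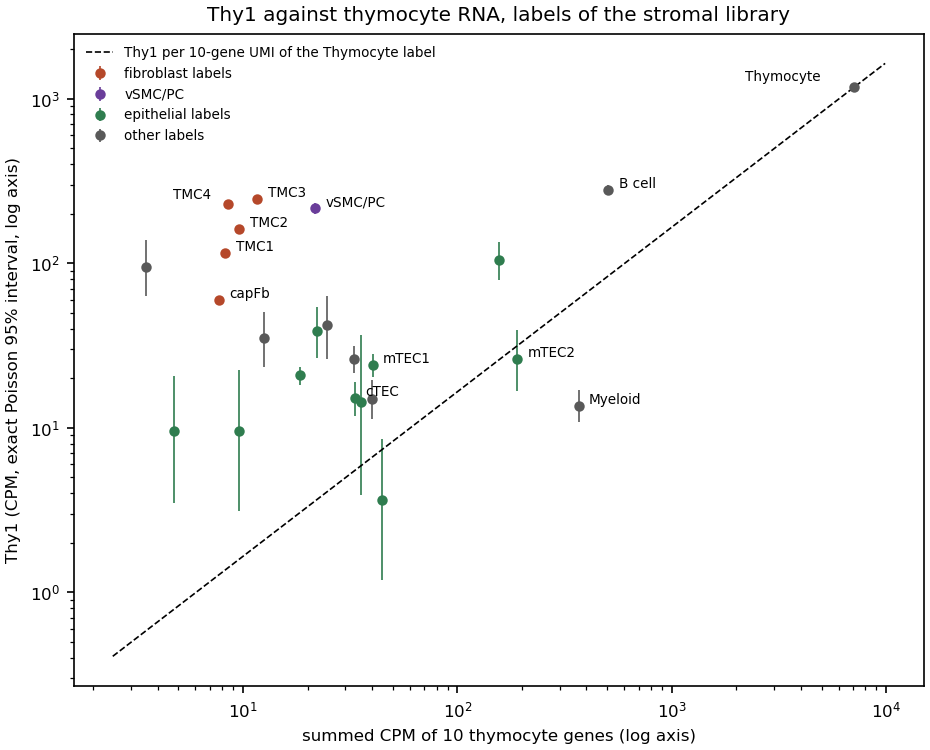
Thy1 level against the summed level of 10 thymocyte genes, both in CPM on log axes, for the labels of the stromal library with at least 20 cells (bars, exact Poisson 95% intervals of Thy1), with a dashed line at the Thy1 per thymocyte-gene UMI of the label Thymocyte. The fibroblast labels and vSMC/PC lie 46.6 to 164 times above the line. TEC:mTEC2 lies near it at 0.838 times, which becomes 1.71 times without Ptcra and Ptprc. Myeloid lies below it at 0.223 times, which becomes 0.643 times without Ptprc, a gene that myeloid cells express.

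The mural label was also divided. Its 189 cells with Thy1 had 829 CPM of Acta2, smooth muscle actin, and 541 CPM of Myh11, smooth muscle myosin, against 1702 and 1454 CPM in the 263 cells without. Rgs5, a pericyte gene, had 993 against 797 CPM, and Pdgfrb, a receptor of pericytes and fibroblasts, 463 against 341 CPM. The fibroblast genes Col1a1 (1306 against 686 CPM) and Dcn (3331 against 1800 CPM) were higher in the cells with Thy1. These cells were deeper, at a median of 7797 against 5622 UMIs, and the part that depth has in the split was not tested.

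Over the 24 stromal labels with at least 20 cells the genes most like Thy1 were Rerg (r = 0.842), Adam12 (0.841), Dennd2a (0.836), Abcc9 (0.833) and Pcbp3 (0.831). Rerg was highest in TMC4 with 216 CPM. Dennd2a and Abcc9, the latter a subunit of a potassium channel found in pericytes, were highest in vSMC/PC with 204 and 686 CPM. Adam12, a metalloprotease (695 CPM), and Pcbp3 (177 CPM) were highest in Thymocyte, as Thy1 was.

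The members' relatives were counted between TMC3 and capFb, a pair chosen after Thy1 was seen to differ there. Of 14471 genes with at least 20 UMIs, 17.6% were at least 2-fold higher in TMC3 and 8.17% at least 2-fold lower, and 10.9% and 5.34% at 3-fold. All 6 mural markers were higher in TMC3, and 3 of 6 fibroblast markers were lower. Of 8 measured thymocyte genes 4 were higher, led by Cd3e (1.32 against 0.433 CPM) and Cd3d (1.61 against 0.557 CPM), and all 10 summed to 11.6 CPM in TMC3 and 7.73 CPM in capFb. Of 8 measured maturation genes 3 were higher, S1pr1 (15.3-fold) first, and 2 lower. Of 12 measured genes of the ADP-ribosyltransferase and nucleotide list 4 were higher, with Art4 (22.7 against 0.433 CPM) and the pyrophosphatase Enpp1 (5.43-fold) leading, and 3 were lower, among them Bst1 (4.33-fold) and Nt5e (3.74-fold). Of 16 other GPI-anchored proteins 4 were higher and 5 lower. Cd55 was 24.9-fold lower in TMC3 (10.4 against 259 CPM), the glypican Gpc3 4.62-fold lower, Cd52 had 2 UMIs in TMC3 against 24, and Cntn1 was 4.34-fold higher. Thy1 thus differed in the opposite direction to Cd55 and Gpc3 between these labels.
Of the 27 anchor-building genes 23 lay within 2-fold and 4 were higher, among them Pgap1 (3.62-fold), Pgap3 (2.17-fold), Pigu (2.12-fold) and Piga (2.03-fold). Of 4 measured genes of reported Thy1 ligands, Adgre5, the receptor CD97, was 7.46-fold higher in TMC3 and Itgb3 2.71-fold lower.

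Art2b in the stromal library was found chiefly in TEC:mTEC2, the label of Aire-expressing medullary epithelium, a cell type known for transcribing genes of many other tissues. It had 27 UMIs in 7 of 61 cells, 30.8 CPM (20.3 to 44.9), and 11.5% of cells (4.74 to 22.2) at a median depth of 13378 UMIs. None of the 482 TEC:mTEC1 cells had a UMI, so TEC:mTEC2 was at least 66.1-fold higher against a floor of 3 UMIs in that label. Among 8216 fibroblasts there were 0, which allows a share of cells with a UMI of up to 0.0365%, though not of cells expressing the gene, and TEC:mTEC2 was at least 812-fold higher against the same floor. The label Thymocyte had 4 UMIs in 2 of 411 cells, 2.33 CPM (0.635 to 5.97), and the ratio of TEC:mTEC2 to it was 13.2 (4.61 to 52.0). Where cells were taken by cluster alone, with the cluster TEC-d in place of TEC:mTEC2, the ratio was 1.98 (0.694 to 7.79). Cells of TEC-d need not be those labelled TEC:mTEC2. In vSMC/PC 2 cells had 1 UMI each. Myeloid cells, B cells, TEC:cTEC and TEC:mTEC-prol had 1 UMI each, and in myeloid cells that is 0.198% of cells.

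The 27 UMIs were unevenly spread. In TEC:mTEC2, 1 cell held 13 and another 8, and the other 5 cells held 1 or 2. The cell with 13 had 22040 UMIs in all, 15 of Aire, 15 of Epcam, an epithelial adhesion molecule, and 313 of RT1-Da, a class II chain. The cell with 8 had 24769 UMIs, 18 of Aire, 7 of Epcam and 321 of RT1-Da. Both had 0 UMIs of Cd3d, Cd3e and Cd3g, and no Thy1 UMI was found in any of the 7 cells. The thymocyte RNA of the label, at the ratio of the Thymocyte cells of the same library, would carry 0.0548 Art2b UMIs. At ratios taken from the thymocyte library it would carry 1.72, by that of Treg, or 0.422, by that of the mature labels. These values use all 10 thymocyte genes, with the Ptcra and Ptprc UMIs of the label among them.
Of the 10 thymocyte genes these 2 cells had 6 and 3 UMIs, of which 4 and 2 were Ptcra. Ptcra had 68.6 CPM in TEC:mTEC2 as a whole and 0.466 CPM (3 UMIs) in TEC:mTEC1. Leaving out cells with 3 or more UMIs of the 10 genes removed 13 of the 61 cells, 5 of the 7 with Art2b among them, and left 2 Art2b UMIs and a ratio to Thymocyte of 1.38 (0.125 to 9.65). Leaving out only cells with a Cd3d, Cd3e or Cd3g UMI left 26 UMIs and a ratio of 15.3 (5.31 to 60.3). The cell with 2 Art2b UMIs had 23 UMIs of Ptprc, the leukocyte antigen CD45, and 0 of Epcam, beside 15 of Aire. Another, with 1, had 8 of Cd3e and 4 of Cd3g.
Markers of myeloid and NK cells were also higher in this label. The 6 myeloid markers summed to 304 CPM in TEC:mTEC2 and 10.3 CPM in TEC:mTEC1, and the 4 measured gamma delta and NK markers to 103 and 6.68 CPM, with Itgam, Klrd1 and Klrb1 at 0 in TEC:mTEC2. Lyz2, lysozyme, was 32.3-fold and Nkg7 95.5-fold higher, and Tyrobp, an adaptor of myeloid and NK receptors, had 34.3 against 1.71 CPM. The 7 cells with Art2b held 69 UMIs of Lyz2, 31 of them in the cell with 13 Art2b UMIs and 0 in the cell with 8, and no UMI of Tyrobp or Nkg7. The part of such cells in the result was not tested further.
Without the 2 leading cells 6 Art2b UMIs remained in TEC:mTEC2 and 0 in Thymocyte, where the 2 leading cells held all 4.

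In TEC:mTEC2 against TEC:mTEC1, where 15.6% of 13597 genes were at least 2-fold higher and 14.2% lower (10.6% and 5.88% at 3-fold), 4 of 10 measured genes of the ADP-ribosyltransferase and nucleotide list were higher and 2 lower. P2rx7, an ATP-gated channel, was 10.7-fold higher (18.3 against 1.71 CPM), Entpd1, the ectoenzyme CD39, 6.74-fold and Enpp3 2.91-fold higher, and Art4 was 7.82-fold lower. Of 18 other GPI-anchored proteins 5 were higher and 4 lower. Folr1, a folate receptor, had 283 against 1.87 CPM, Folr2 61.7 against 0.155 CPM (1 UMI), Cd52, a lymphocyte protein, 51.4 against 0.311 CPM (2 UMIs) and Cntn1 44.6 against 1.09 CPM. Of 27 anchor-building genes 21 lay within 2-fold, 3 were higher and 3 lower. Of 3 ligand genes Adgre5 was 5.59-fold higher. Of 7 measured thymocyte genes 5 were higher and none lower, Ptcra and Ptprc (7.15-fold) first. Of 13 measured maturation genes 7 were higher and 2 lower, Il7r (25 UMIs against 0) among the higher.
The 5 genes most like Art2b over the 24 stromal labels were Chia (r = 0.946), Gzmb (0.944), Cyp2c23 (0.934), Pyy (0.930) and Defb14 (0.930), all highest in TEC:mTEC2. Chia encodes a chitinase, Gzmb granzyme B, Pyy a gut peptide hormone and Defb14 a defensin. They had 140 to 254 UMIs in the library, and none of the 5 remains when genes need 500 UMIs.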

How the data were processed

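Single-cell RNA counts of 1 stromal and 1 thymocyte library were used. The deposited matrices hold UMI counts as whole numbers, and per the file headers Cell Ranger 8.0.0 wrote them. The submitters' processing notes name Cell Ranger 8.0.0, Seurat 5.3.0 and the build mRatBN7.2. The deposited percent of mitochondrial UMIs per cell, given by the authors, was not used. Each cell took the authors' projected label, or the cluster where none was given; per the series' design text, mouse data helped to build the labels.

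UMIs were summed per label and given as CPM with exact Poisson intervals. Intervals of ratios are exact conditional binomial and those of shares Clopper-Pearson, at 95%, and a count of 0 is given the limit of 3 counts. Labels with at least 20 cells entered orders. Cells were thinned to 1000 UMIs, which left out 83 stromal and 51 thymocyte-library cells. Doublets were not called here. With 1 library per group no test was possible. The fold calls were tested on simulated counts of mature against DP cells: 98% of 50 genes changed 3-fold upward, 85.4% of 48 changed 3-fold downward and 1.56% of 12120 unchanged genes were called. The simulated counts were Poisson draws from summed counts, with no variation between cells. These rates therefore do not cover genes whose UMIs gather in few cells.

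Genes named are the members, up to 4 of each list with the largest fold and at least 20 UMIs over both labels, and the 5 most alike in pattern among genes with at least 100 UMIs; genes compared within a label, 2 lower maturation genes (Rag1 and Dntt) and others given as single values were chosen after their values were seen. The members and lists were chosen with earlier results of these data known. Cd59, Pigyl and Trdc of the lists were not matched, and some named genes are not reported here. Python 3.11.15, numpy 2.4.6, pandas 2.3.3, scipy 1.17.1 and matplotlib 3.10.9 were used.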

Additional observations from a re-analysis of the deposited data

Results flagged for a closer look

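Barcodes that the authors left without a label in the stromal library carried signal of both genes, which none of the comparisons uses. These 2934 barcodes, with a median of 1219.5 UMIs, had 416 Thy1 UMIs in 199 barcodes, 48.0 CPM, and 1116 UMIs of the 10 thymocyte genes. They also had 13 Art2b UMIs, 1.50 CPM, all in 1 barcode. That barcode held 56442 UMIs of 8520 genes, with 29 UMIs of Aire, 70 of Epcam, 246 of RT1-Da, 0 of Cd3d, Cd3e, Cd3g and Ptprc, and 0 of Thy1. Both totals lie above the 3 UMIs that a count of 0 allows.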

How the results depend on the processing

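Of 79 ratios recomputed under another setting, 65 stayed within the interval of the reported ratio and 14 moved outside it. None of the 79 changed direction. Of 5 further ratios added after seeing the data, the 3 of Thy1 in immature SP over mature labels moved from 0.970 to between 3.21 and 4.35. The 2 of Art2b without Cd79a cells lay within the reported intervals. That of Treg over mature rests on 2 UMIs in 10 Treg cells, and its own interval (0.302 to 10.1) is too wide to show a difference. For Thy1 in the mature labels over DP (0.0497), the value was 0.0380 as a mean of the cells' CPM, 0.0588 with totals without mitochondrial rRNA, ribosomal protein and haemoglobin genes, 0.0408 after thinning, and 0.0111 without mature cells with a Rag1 UMI. That last setting, chosen after seeing the data, gave 3.29 for Mature CD4-2 over Mature CD4-1. TMC3 over capFb was 4.59 as a mean over cells and 4.47 thinned, and TMC3 over vSMC/PC was 1.26 under both, against 1.14. For Art2b, thinning gave 2.82 for mature over DP (2 and 10 UMIs) and 13.2, against 3 UMIs, for Treg over mature (4 and 2 UMIs). TEC:mTEC2 over Thymocyte became 1.38 without cells holding 3 or more thymocyte UMIs and at least 4.12 without the 2 leading cells of each label. By cluster alone, with the cluster TEC-d in place of TEC:mTEC2, it was 1.98. Thinning left 7 of 47 cells with both RNAs. At 3-fold, entries of the lists fell from 20 to 13 higher and 11 to 5 lower in TEC:mTEC2, and from 16 to 8 and 11 to 7 in TMC3. Of the 5 genes most like Art2b in stroma 0 stayed with 500 UMIs required, and 2 of 5 stayed with a pseudocount of 10 for Art2b in thymocytes and Thy1 in stroma. No paired analysis was possible because 1 library stands for each group. Art2b's depth, 139 and 37 UMIs, limits every order among its labels, and no result can be extended past these libraries.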

Other observations

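Cells outside the thymocyte and mesenchymal labels also carried Thy1. The B cells of the stromal library had 793 UMIs in 179 cells, 278 CPM, and 69.8% of them had a UMI, 27.4% after thinning. They held 3.32 times the Thy1 that thymocyte RNA at the ratio of the Thymocyte label would bring. Their 125 cells with Thy1 had 703 CPM of Cd79a, a chain of the B-cell receptor complex, against 358 CPM in the 54 without, and also more Cd3g, 246 against 61.7 CPM. Endothelial labels had 35.0 CPM in EC:aEC, 26.1 CPM in EC:capEC and 14.9 CPM in EC:vEC, and the pooled fibroblasts exceeded EC:capEC 5.88-fold (4.90 to 7.12).

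Within the epithelium Thy1 was highest in TEC:aaTEC2, with 57 UMIs in 29 cells, 104 CPM (79.0 to 135), and a UMI in 58.6% of cells, against 9.52 CPM in TEC:aaTEC1 and 3.66 CPM in TEC:mTEC-prol. The 10 thymocyte genes summed to 156 CPM in TEC:aaTEC2, and its Thy1 was 4.06 times the amount at the thymocyte ratio. After thinning 3.45% of its cells kept a UMI.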
